A study of Mus musculus with 56 samples.

Results

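Protein genes of the cytosolic ribosome were followed in visceral adipose tissue (VAT) of mice fed only by day or only by night. The 82 genes were taken by symbol: protein-coding genes named Rpl, Rps or Rplp with a number, leaving out pseudogenes and the S6 kinases. They stand among 25939 genes listed for the tissue. Of these, 43 encode proteins of the large subunit, 30 proteins of the small subunit and 3 proteins of the stalk, the arm of the large subunit that receives the elongation factors. The other 6 are paralogs, which are second copies with a parent gene in the set: Rpl3l, Rpl7l1, Rpl22l1, Rpl36al, Rpl39l and Rps27l.

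Ribosomal proteins are made in near equal amounts and join ribosomal RNA in the nucleolus before the subunits reach the cytosol. Their mRNAs start with a C followed by a run of pyrimidines, the 5′ terminal oligopyrimidine (TOP) tract, through which the nutrient-sensing kinase mTORC1 and the binding protein LARP1 set how strongly they are translated and how stable they are. Feeding is therefore known to act on these mRNAs at the level of translation, which reads of poly(A) RNA do not show.

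The mice were female C57BL/6J of 9 weeks, kept in 12 h of light and 12 h of dark on chow, without any transgene or drug. For 7 days they received food only in the light phase (daytime-restricted feeding, DRF) or only in the dark phase (nighttime-restricted feeding, NRF, the control regimen). VAT was collected every 4 h from ZT0 to ZT24 (ZT, zeitgeber time, hours after lights on), with 4 libraries in each of 14 groups and 28 per regimen. All 56 libraries are of bulk poly(A) RNA, so that fewer cells of a type and less RNA per cell cannot be told apart.

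Reads recovered from the deposited values numbered 31144102 to 41246347 per library, and no 2 libraries were identical. Of the 82 genes, 75 held at least 1000 reads in every library. Adipocyte markers were abundant, their summed level having a median of 40000 CPM (reads scaled to the effective library size) under NRF (30800 to 50300 CPM) and 38100 CPM under DRF (15400 to 48000 CPM). Markers of reproductive tract epithelium summed to 1330 CPM in DRF ZT0 replicate 4 and 621 CPM in DRF ZT8 replicate 1, against at most 123 CPM in the other libraries. The same libraries had the lowest sums of adipocyte markers, 21700 and 15400 CPM respectively. NRF ZT24 replicate 4 held 1540 CPM of liver markers. Skeletal muscle markers varied widely, from 10.7 to 525 CPM under NRF (median 38.6) and from 5.88 to 402 CPM under DRF (median 57.5). The highest ribosomal protein level of all was that of NRF ZT8 replicate 2, described below.

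The 30 bases around the annotated start of several of these genes show the pyrimidine tract, and they are printed because the tract is what the family is known to share. Sequences were taken from RefSeq promoters of GRCm38.p6, which matched 62 of the 82 genes. Each runs from 15 bases before the start to 15 bases from the start on, 5′ to 3′ on the strand of the gene, and its longest run of C and T is in capitals. Where a gene had several starts, the one with the longest run is shown, and the same choice was made for every gene of the table. Rps27, Rps21, Rps3a1 and Rpl35a are among the genes that fell most under DRF, Rplp2 is of the stalk, Rps6 is the target of the S6 kinases, and the last 4 are paralogs.
Rps27 (chr3:90213634-90213663, minus strand): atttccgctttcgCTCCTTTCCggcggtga
Rps21 (chr2:180257364-180257393, plus strand): taccgaggacccgCCCTCCTgcccaatagt
Rps3a1 (chr3:86142654-86142683, minus strand): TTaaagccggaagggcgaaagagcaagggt
Rpl35a (chr16:33056467-33056496, plus strand): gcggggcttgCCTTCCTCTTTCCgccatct
Rplp2 (chr7:141447636-141447665, plus strand): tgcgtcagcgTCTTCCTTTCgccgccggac
Rps6 (chr4:86857353-86857382, minus strand): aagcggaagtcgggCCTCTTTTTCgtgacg
Rpl22l1 (chr3:28805493-28805522, plus strand): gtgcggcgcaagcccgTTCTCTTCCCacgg
Rps27l (chr9:66946071-66946100, plus strand): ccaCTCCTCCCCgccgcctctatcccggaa
Rpl36al (chr12:69184053-69184082, minus strand): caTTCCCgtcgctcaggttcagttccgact
Rpl7l1 (chr17:46782642-46782671, minus strand): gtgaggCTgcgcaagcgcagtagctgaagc

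The longest run reached 10 bases in Rps6, Rplp2 and Rpl22l1 and 13 bases in Rpl35a. It was 2 bases in Rpl7l1, and also in Rps3a1 and Rpl24, so that a short run was not particular to the paralog. A run of at least 8 C or T was found in 27 of the 62 matched genes (43.5%), in 17 of the 44 matched genes that fell under DRF (38.6%) and in 13.9% of all 27025 genes with a promoter. TCTTTC stood in 12.9% of the members' 30-base windows and in 1.3% of all, CTTTCC in 16.1% and 1.6%, and CTCTTT in 12.9% and 1.29%. These 3 motifs overlap each other and were searched on the strand of the gene. In the full promoters of 300 bases, on either strand, CCGGAAG was present in 24 members (38.7%, against 9.08% of all promoters), AAGATGG in 10 (16.1% against 6.46%), CACGTG in 6 (9.68% against 7.05%) and TTATGTAA in none (against 0.969%). Of the paralogs, Rpl39l and Rps27l held CCGGAAG and Rpl7l1 held AAGATGG. Annotated starts can differ from those used in VAT, which were not measured.

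The levels of the 82 genes spanned several orders of magnitude per length. Rplp1, an acidic protein of the stalk, was the highest at 1080 CPM per kilobase of exon, followed by Rpl36 (583), Rps15 (578), Rps3a1 (515) and Rpl41 (484). The lowest were Rpl39l (0.133), Rpl36al (0.326), Rpl3l (0.344), Rps10 (0.91) and Rpl24 (3.09 CPM per kilobase). Rpl3l is known from striated muscle and Rpl39l from male germ cells. The part of muscle RNA in the level of Rpl3l was not tested. Rps10 and Rpl24 encode core proteins that every ribosome holds, and had at most 182 and 189 reads in any library. Exons of other annotated genes cover 28.7% of the exon length of Rps10 (RPS10-NUDT3 and Gm15420) and 47% of that of Rpl24 (Gm28037). Such overlap was found for 38 members, abundant ones among them, and reached 66.2% in Rpl35 and 62.3% in Rpl23a. The levels of these genes are therefore uncertain. In addition, 149 pseudogenes named after members held reads equal to 4.22% of the members' reads.

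The 82 genes together took 1.59% to 4.2% of the reads of a library. Under NRF the summed share ranged from 1.97% to 4.2% with a median of 2.41%, and under DRF from 1.59% to 3.65% with a median of 1.97%. The regimens overlapped, but 18 of the 28 DRF libraries and 1 of the 28 NRF libraries lay below 2%. By group, the share under NRF was 2.58% ± 0.109 at ZT0, 2.89% ± 0.477 at ZT4, 2.92% ± 0.978 at ZT8, 2.3% ± 0.428 at ZT12, 2.28% ± 0.207 at ZT16, 2.33% ± 0.118 at ZT20 and 2.38% ± 0.308 at ZT24 (SD, n = 4). Under DRF it was 2.29% ± 0.723 at ZT0, 1.9% ± 0.0598 at ZT4, 2.56% ± 0.741 at ZT8, 1.85% ± 0.182 at ZT12, 1.88% ± 0.188 at ZT16, 2.03% ± 0.178 at ZT20 and 2.15% ± 0.364 at ZT24. The DRF mean was the lower at each of the 7 time points with all libraries. At ZT8 this rested on NRF ZT8 replicate 2, without which the NRF mean was 2.49% ± 0.575 (SD, n = 3), below that of DRF. Without DRF ZT8 replicate 1 the DRF mean there was 2.2% ± 0.19 (SD, n = 3). At ZT4 the highest DRF library (1.96%) lay below the lowest NRF library (2.29%).

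Single libraries stood out in many of the genes at once. NRF ZT8 replicate 2 had the highest share (4.2%, 95% Wilson interval 4.197% to 4.21%, counting error only) and the highest value of 72 of the 82 genes. It also had the highest summed macrophage markers, at 1820 CPM against a median of 1000 CPM under NRF, the highest B and T lymphocyte markers (31.5 against 12.3 CPM) and, among NRF libraries, the highest blood markers (746 against 274 CPM). Their part in its ribosomal protein level was not tested. DRF ZT8 replicate 1 (3.65%) and DRF ZT0 replicate 4 (3.26%), the libraries with epithelial markers and the lowest adipocyte markers, had the highest shares under DRF. DRF ZT12 replicate 3 had the lowest share (1.59%) and the lowest value of 44 of the 82 genes. Since genes of this family rise and fall together between libraries, the counts of members below are not counts of independent observations.

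**Figure D1:**
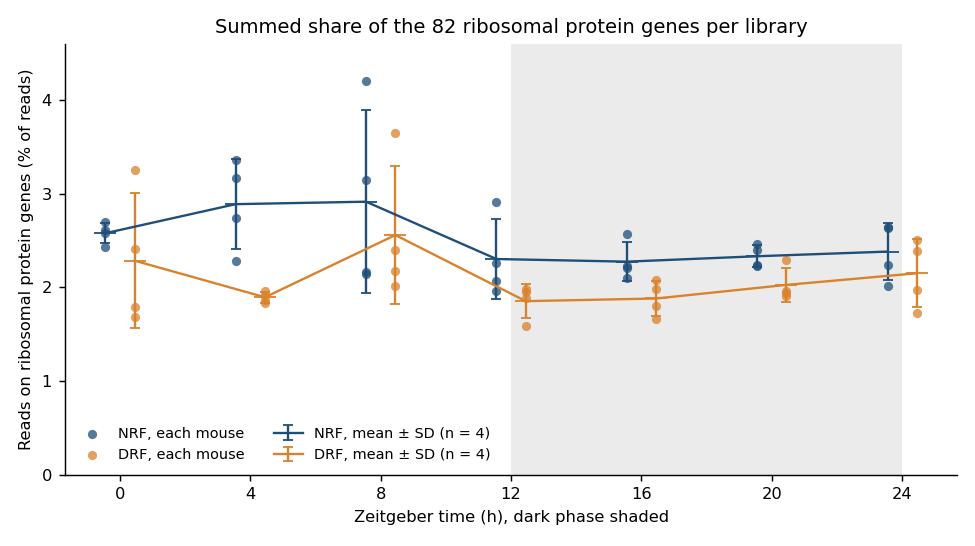
Share of reads (percent, y axis) on the 82 ribosomal protein genes in each of 56 libraries against zeitgeber time (h, x axis), with group means and SD (n = 4). The DRF means lie below the NRF means. At ZT8 the order turns without NRF ZT8 replicate 2, the highest point at 4.2%, but not when DRF ZT8 replicate 1 is left out as well.

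Ribosomal protein mRNAs were lower under DRF. The mean level over the day was compared between regimens by limma across all genes, on log2(CPM + 1) with a 24-h cosine for each regimen and Benjamini-Hochberg adjustment (a call is an adjusted p under 0.05). Of the 82 genes, 60 fell and 1 rose, while of all genes 10.3% were called lower and 11.4% higher. The count of members that fell was 31 without replicate 2 and 38 without replicate 3, and 68 to 73 with quantiles, library totals or limma-voom. The median difference was -0.24 on the log2 scale (0.847-fold), against -0.0004 for all genes. The fall was called for 31 of 43 large subunit genes (median 0.855-fold), 27 of 30 small subunit genes (median 0.836-fold), 2 of 3 stalk genes and none of the 6 paralogs. All 73 core subunit genes and all 3 stalk genes had a difference below 0 in this fit.

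Rps3a1, a protein of the small subunit, showed the pattern in an abundant gene (chr3:86137940-86142702, GRCm38). Its level ranged from 418 CPM through a median of 531 to 880 CPM under NRF, and from 318 through 427 to 675 CPM under DRF. The ranges overlapped widely. The mean fell by 0.33 on the log2 scale (SE 0.0702, limma adjusted p = 0.000382), to 0.797-fold.

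Rps21, also of the small subunit, had 85.4, 129 and 235 CPM (lowest, median, highest) under NRF and 65, 102 and 172 CPM under DRF, and fell by 0.33 (SE 0.0799, limma adjusted p = 0.00184). Rpl35a of the large subunit had 97.1, 135 and 228 CPM under NRF and 70.4, 110 and 171 CPM under DRF, and fell by 0.3 (SE 0.0772, limma adjusted p = 0.00276). Rps6, whose phosphorylation is the usual readout of mTORC1, had 365, 462 and 708 CPM under NRF and 302, 408 and 597 CPM under DRF. It fell by 0.23 (SE 0.0648, limma adjusted p = 0.00743). In each of these genes the lowest, the median and the highest library were all lower under DRF.

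In the stalk, the acidic proteins Rplp1 and Rplp2 fell and their scaffold Rplp0 was not called. Rplp1 had 398, 573 and 1060 CPM under NRF and 306, 471 and 660 CPM under DRF, a fall of 0.31 (SE 0.0755, limma adjusted p = 0.0015). Rplp2 fell by 0.28 (SE 0.0679, limma adjusted p = 0.00136). Rplp0 differed by -0.14 (SE 0.059, limma adjusted p = 0.0781), and was called in 6 alternative fits. Whether the stalk genes differed from each other was not tested.

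The largest differences belonged to the noisiest genes. Rps27 ranged from 45 to 312 CPM under NRF (median 159) and from 39.2 to 204 CPM under DRF (median 125). It fell by 0.46 (SE 0.169, limma adjusted p = 0.0405), a call that was lost without NRF ZT8 replicate 2 (adjusted p = 0.0723). Rps27a, which encodes ubiquitin fused to a small subunit protein, differed by -0.46 (SE 0.179, limma adjusted p = 0.0561). Rpl17 differed by -0.47 (SE 0.193, adjusted p = 0.0752). The SD over libraries of these 3 genes was 0.58 to 0.78 on the log2 scale within a regimen, against a median of 0.26 over the 82 genes in either regimen.

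**Figure D2:**
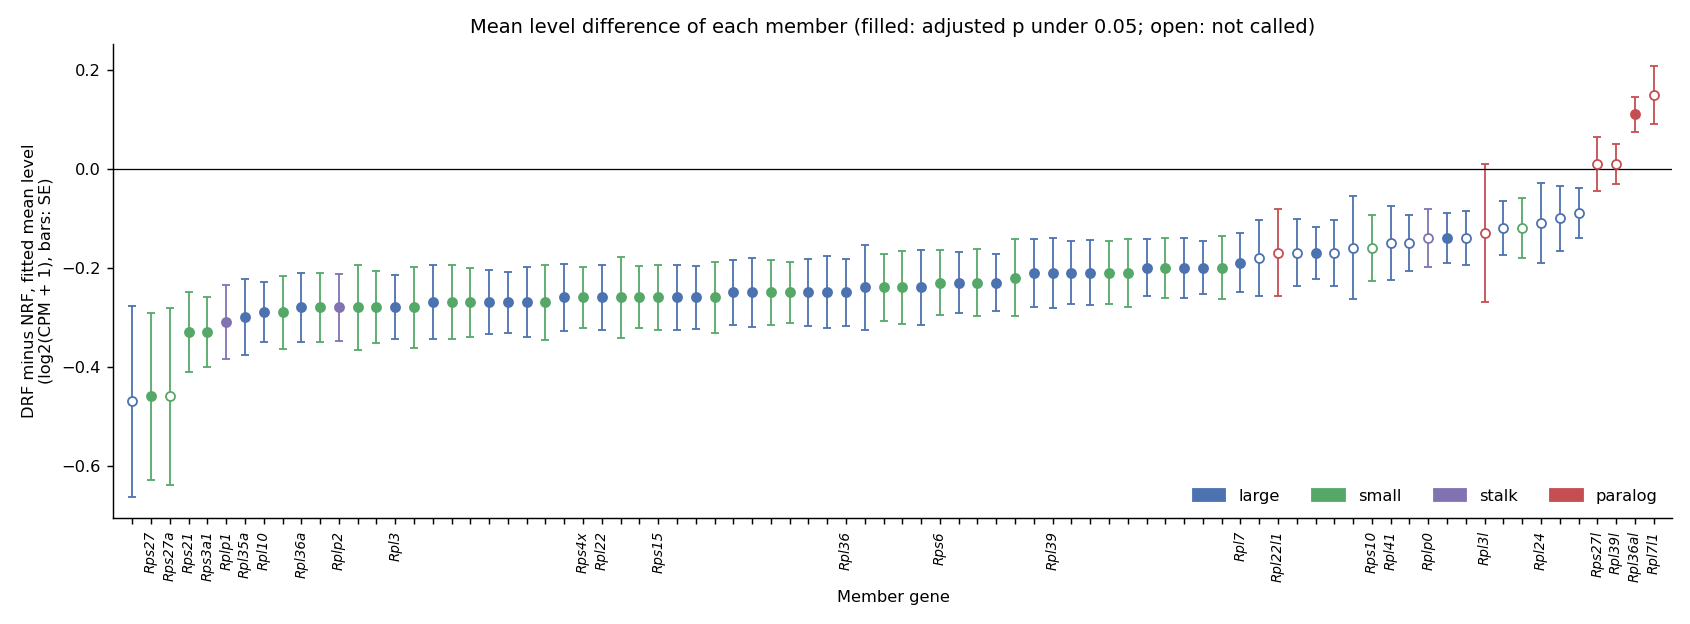
Difference in fitted mean level, DRF minus NRF (log2(CPM + 1), y axis), of each of the 82 genes (x axis) with SE from limma, coloured by class and filled where the adjusted p was under 0.05 (only some genes are labelled). Core genes lie below 0 and 4 of the 6 paralogs at or above it.

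None of the 6 paralogs was called lower, while each of their parent genes was. Rpl3l, Rpl36al and Rpl39l had medians of 0.0539 to 0.488 CPM, where log2(CPM + 1) understates changes. The difference of Rpl22l1 (-0.17) was as large as that of Rpl4, a core gene called lower. Rps27l, known as a target of p53, had 51.9, 80.6 and 102 CPM under NRF and 61.6, 80.2 and 98.6 CPM under DRF, a difference of 0.01 (SE 0.0548, limma adjusted p = 0.892). The sign of this difference changed with the scaling. Its parent Rps27 fell, as given above. Rpl22l1 had 18.2, 35.3 and 47.5 CPM under NRF and 13.5, 30.6 and 41.6 CPM under DRF and differed by -0.17 (SE 0.0882, adjusted p = 0.17), while Rpl22 fell by 0.26 (SE 0.0664, adjusted p = 0.00265).

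Rpl7l1, which takes part in the assembly of the large subunit, differed by 0.15 (SE 0.0586, adjusted p = 0.0655), while Rpl7 fell by 0.19 (SE 0.0596, adjusted p = 0.0146). Rpl36al was the member that rose, by 0.11 (SE 0.036, adjusted p = 0.0271), but it held only 5 to 31 reads per library. Its call was lost with either library total (adjusted p = 0.0582 and 0.0656), without replicate 2 (0.201) or 4 (0.133) and without ZT24 (0.07). Its parent Rpl36a fell by 0.28 (SE 0.07, adjusted p = 0.00248). Rpl3 fell by 0.28 (SE 0.0648, adjusted p = 0.00112) and Rpl39 by 0.21 (SE 0.071, adjusted p = 0.0269), while their rare copies Rpl3l (-0.13, SE 0.14) and Rpl39l (0.01, SE 0.0405) were not called. Rpl10 and Rps4x, whose own copies were not analysed here, fell by 0.29 and 0.26. The difference between a paralog and its parent was not tested.

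Other genes of the pathway were counted from lists. Of ribosomal protein genes that the symbol rule leaves out, Fau (-0.24) and Rack1 (-0.19) fell, and Rpsa (-0.16, SE 0.0613) was not called. Over all genes, 10.3% fell and 11.4% rose, here and for the lists that follow. Of 17 other TOP mRNAs, which encode elongation and initiation factors and other proteins, 10 fell and none rose. Their median was -0.15 on the log2 scale. Among them, Eif4b fell by 0.29 (SE 0.0633), Npm1 by 0.28 (SE 0.0648) and Eef1b2 by 0.26 (SE 0.0705). The abundant Eef1a1 differed by -0.15 (SE 0.0787, limma adjusted p = 0.172). Of 24 genes of TOP and growth signalling, 6 rose (Mtor, Rptor, Deptor, Tsc2, Eif4e and Castor2) and Myc fell by 0.23 (SE 0.0815). Larp1 differed by 0.04 (SE 0.0406) in mean level. At the same clock time, its rhythm differed between regimens (limma F test, adjusted p = 2.89e-10). Of the 24 genes, 17 had a different rhythm in this test (background 36%).

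Markers of some other cell types moved with the regimen as well. All 5 markers of proliferating cells rose under DRF (their sum had a median of 27.2 CPM, range 8.35 to 53.6, under NRF and of 55.2 CPM, range 11.5 to 250, under DRF), and so did all 5 blood markers (274 CPM, 176 to 746, and 476 CPM, 209 to 859). Macrophage markers were lower, with 4 of 6 called (1000 CPM, 724 to 1820, and 829 CPM, 606 to 1210), as were 2 of 4 markers of mesothelium (387 CPM, 193 to 560, and 299 CPM, 172 to 509). Adipoq and Cfd fell among the 8 adipocyte markers and Lep rose. Of 5 endothelial markers Tek and Emcn fell, of 8 lymphocyte markers Cd3g fell, and none of 5 muscle, 4 liver and 8 epithelial markers was called. Reads on mitochondrial genes had a median of 5.42% under NRF (range 3.97% to 6.21%) and 6.09% under DRF (4.67% to 7.95%). The part of these in the fall of ribosomal protein mRNAs was not tested. Without the DRF libraries with epithelial markers, 72 members fell, and 55 fell without NRF ZT8 replicate 2 as well as without DRF ZT12 replicate 3.

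At single clock times the count of calls was highest at ZT4, but not in every fit. In limma fits of the 14 groups, 15 members were called lower and 1 higher at ZT4 (background 9.05% and 10.4% of all genes). The members' median difference was -0.39, and -0.58 to -0.6 with either library total, quantiles or limma-voom. Of the 15, 6 were of the large subunit, 8 of the small subunit and 1 of the stalk, led by Rps21 (fall of 0.63, SE 0.201), Rps3a1 (0.58, SE 0.183) and Rplp1 (0.57, SE 0.189). Rps3a1 had 507, 683, 768 and 581 CPM in the 4 NRF libraries at ZT4 and 420, 423, 426 and 411 CPM in the 4 DRF libraries, so that these groups did not overlap. The count at ZT4 depended on the scaling: 63 members were called with quantile normalization, 67 with library total scaling, an alternative chosen after seeing the data, and 1 without replicate 2, 3 or 4. With the deposited values 3 members differed at ZT4 and 6 at ZT0, and without replicate 3 there were 4 at ZT0, so that ZT4 no longer led.

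At other times few members passed the adjusted threshold. The counts were 3 lower at ZT0 (background 5.06% lower and 5.41% higher), 1 higher at ZT8 (8.99% higher and 7.47% lower), 1 higher and 1 lower at ZT12 (8.76% and 7.38%), none at ZT16 (5% higher and 4.97% lower), 2 lower at ZT20 (6.41% lower and 6.71% higher) and 1 lower at ZT24 (5.24% lower and 6.09% higher). At an unadjusted p under 0.05 there were 11 members at ZT0 (24.2% of all genes), 55 at ZT4 (30.6%), 3 at ZT8 (27.9%), 32 at ZT12 (27.6%, 30 of the members lower), 5 at ZT16 (22.3%), 6 at ZT20 (24.3%) and 1 at ZT24 (24.1%). The count at ZT4 fell to 13 without replicate 2 and 18 without replicate 3, and that at ZT12 to 5 without replicate 3, 15 without replicate 1 and 16 without replicate 4. Rpl7l1 was among those called at each of these times but ZT16. The others were Rplp2 and Rps19 at ZT0, Rpl10 at ZT12 and Rpl22l1 at ZT20. ZT0 and ZT24 are the same clock time, lights on. Neither Rplp2 nor Rps19 was called at ZT24, where Rplp2 differed by 0.16 (SE 0.166). The median difference over the 82 genes was -0.24 at ZT0, -0.12 at ZT8, -0.32 at ZT12, -0.23 at ZT16, -0.18 at ZT20 and -0.07 at ZT24. The value at ZT24 was -0.16 with library totals or limma-voom and -0.15 with quantiles, and that at ZT16 was -0.12 without replicate 3. At ZT8 it turned to 0.06 without NRF ZT8 replicate 2, and was -0.21 without the libraries with epithelial markers and -0.36 without replicate 1, where 42 members had an unadjusted p under 0.05 and 3 were called lower. At ZT0 it was -0.38 without the libraries with epithelial markers, with 47 members at an unadjusted p under 0.05 (43 with the deposited values). It was -0.12 there with 6 such members without replicate 1, and -0.19 with 4 without replicate 2.

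When groups were aligned by feeding instead, the count of calls was highest early in the phase without food among the stages compared, but not in every fit. The ends of the phases with and without food were not compared. DRF ZT16 and NRF ZT4 both lie 4 h into the phase without food. Between them 38 members were called lower and none higher (background 5.67% lower and 4.75% higher), 20 of the large subunit, 16 of the small subunit and 2 of the stalk, with a median difference of -0.52. The count was 20 with the deposited values, 60 with library totals and 61 with limma-voom. No member was called when the libraries of replicate 3 were left out, and Rpl38 alone without those of replicate 2. Of single libraries, the count fell to 13 without DRF ZT16 replicate 1, 7 without DRF ZT16 replicate 3, 11 without NRF ZT4 replicate 2 and 6 without NRF ZT4 replicate 3.

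Rpl38, a protein of the large subunit, had 93.8, 122, 122 and 94 CPM in the NRF ZT4 libraries and 58.3, 64.7, 38.3 and 82.4 CPM in the DRF ZT16 libraries, a fall of 0.85 (SE 0.199, limma adjusted p = 0.0038). Rps29, of the small subunit, had 145, 199, 196 and 152 CPM against 85.9, 92.1, 83.3 and 124 CPM, also a fall of 0.85 (SE 0.204, limma adjusted p = 0.0051). In both genes the groups did not overlap. For Rps6 the same comparison gave -0.36 (SE 0.174, limma adjusted p = 0.19).

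At mid-feeding, DRF ZT8 against NRF ZT20, no member was called by limma (background 0.497% higher and 0.551% lower). None had an unadjusted p under 0.05, against 13.5% of all genes. The median difference was 0.01 (range -0.19 to 0.35). DRF ZT8 holds replicate 1, the library with epithelial markers and a share of 3.65%, where the others of its group had 2.02% to 2.4%. Without the libraries with epithelial markers the median was -0.07, 2 members had an unadjusted p under 0.05 and none was called. For Rps3a1 it was 0.01 (SE 0.183) and for Rplp1 -0.02 (SE 0.189). At mid-fasting, DRF ZT20 against NRF ZT8, Rpl3 and Rps13 were called lower (background 4.1% lower and 5.59% higher) and the median was -0.34. Without NRF ZT8 replicate 2 no member was called and the median was -0.14, none was called with the deposited values, and 13 to 22 were with quantiles, library totals or limma-voom. Early in feeding, DRF ZT4 against NRF ZT16, Rpl7l1 alone was called, higher by 0.44 (SE 0.138; background 7.09% higher and 5.46% lower), and the median was -0.12. The median was -0.26 with library totals, quantiles or limma-voom. In those fits 10 to 17 members had an unadjusted p under 0.05, against 4 members and 26.3% of all genes before. This call of Rpl7l1 was lost with either library total, quantiles or limma-voom and without replicate 2, 3 or 4. That the gap differed between these stages was not tested.

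**Figure D3:**
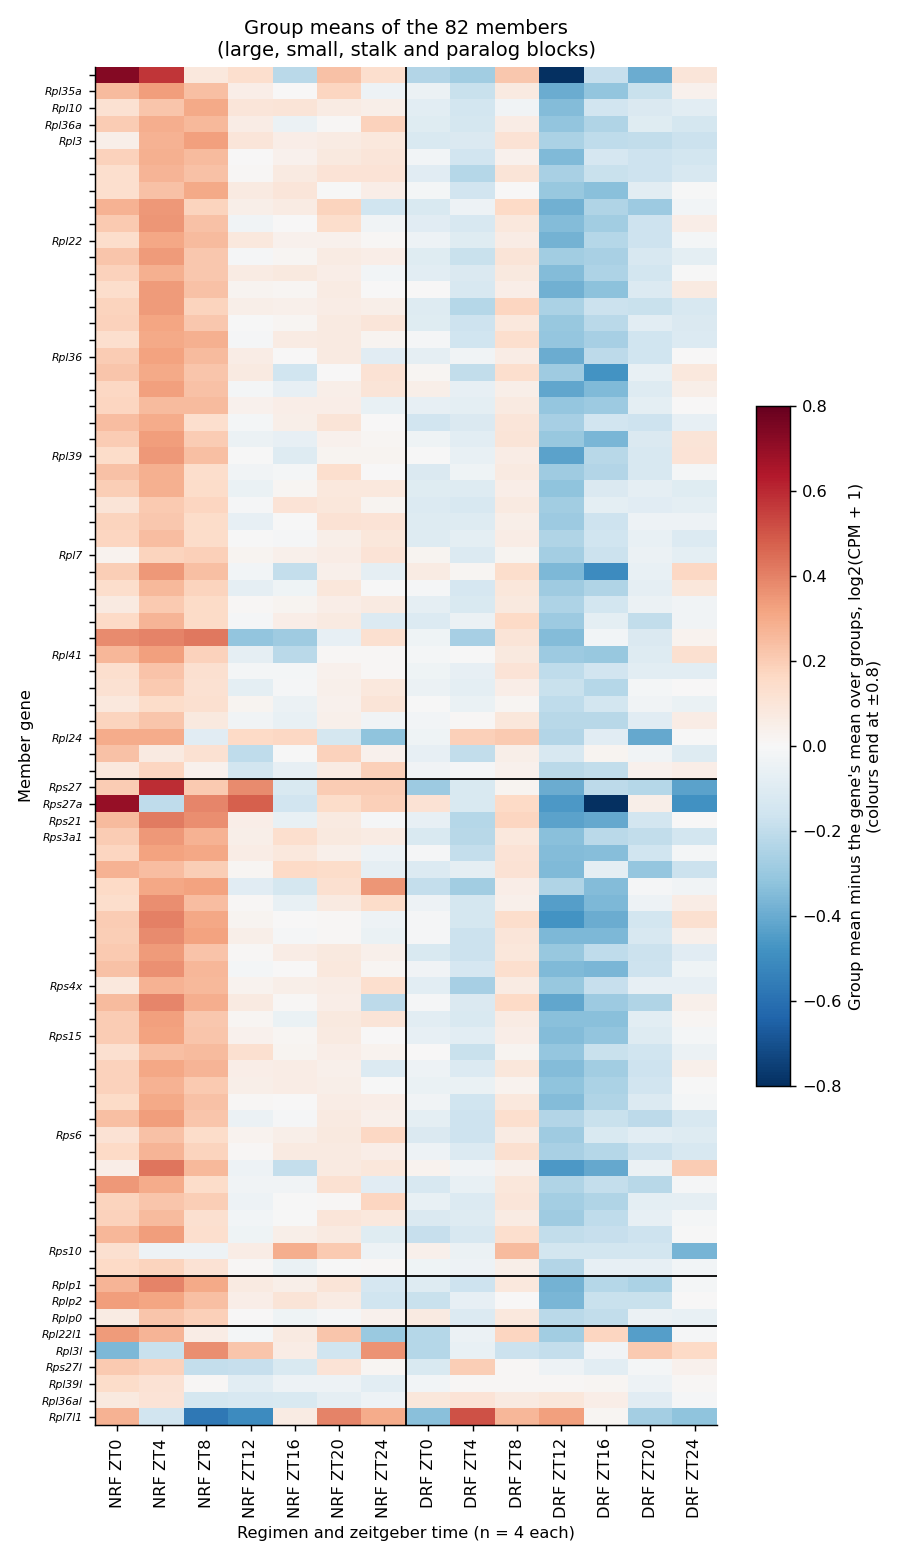
Group mean of each of the 82 genes (rows, by class, only some labelled) in the 14 groups (columns), as the log2(CPM + 1) difference from the gene's mean over groups. NRF ZT4 is high and DRF ZT12 and DRF ZT16 are low across the core genes, and Rpl7l1 in the last row runs opposite in the regimens.

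Within a regimen, few members were called between mid-feeding and mid-fasting. Under NRF (ZT20 against ZT8) Rpl7l1 rose by 0.98 (SE 0.138) and no other member was called (background 11.8% higher and 10% lower). The median was -0.16, which turned to 0.05 without NRF ZT8 replicate 2. It was -0.28 with library totals, quantiles or limma-voom and -0.3 without replicate 3. Under DRF (ZT8 against ZT20) Rpl7l1, Rpl22l1 and Rpl24 rose (background 5.73% higher and 5.8% lower), and the median was 0.19. It ranged from 0.07 without replicate 1 to 0.31 without replicate 4, and was 0.12 without the libraries with epithelial markers. Without the libraries with epithelial markers Rpl7l1 and Rpl24 were called, with the deposited values Rpl24 alone, and without replicate 4 none. Rpl22l1 had 41.6, 31.4, 34.4 and 32.4 CPM at ZT8 and 20.7, 21, 23.2 and 25.3 CPM at ZT20 under DRF, a rise of 0.6 (SE 0.195, limma adjusted p = 0.0337). The ZT8 and ZT20 libraries did not overlap, and the highest was replicate 1 at ZT8, a library with epithelial markers. Rpl22l1 was not called without these libraries. No such rise of Rpl22l1 was called under NRF (0.17, SE 0.195), and the difference of the rises was not tested.

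Few members of the family had a diurnal rhythm that passed the test. With JTK_CYCLE and Lomb-Scargle combined, 1 of 82 members was rhythmic under NRF and 1 under DRF, where 24.4% and 12.8% of all genes were. In both regimens it was Rpl7l1, where 7.84% of all genes were rhythmic in both. At an unadjusted p under 0.05 there were 2 members under NRF and 1 under DRF, against 30.2% and 20.2% of all genes. A limma F test called 6 under NRF (Rpl7l1, Rpl21, Rpl36al, Rpl41, Rps27l and Rps29, background 33.7%). It called 4 under DRF (Rpl7l1, Rpl38, Rps28 and Rps29, background 26.7%). By this test Rps29 was called in both regimens, as was Rpl7l1.

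The fitted waves of most members peaked by day under both regimens. On the log2 scale, the median amplitude of the 82 genes was 0.13 with NRF and 0.12 with DRF. It was 0.1 and 0.09 over all genes, and 0.27 and 0.29 over the genes called rhythmic, which were chosen for their waves. The fitted peak fell between ZT0 and ZT8 for 78 members under NRF (median ZT4.69) and 76 under DRF (median ZT3.36), and for 33.6% and 32.6% of all genes. As most of these waves did not pass a rhythm test and the members share their libraries, the peak times are a description. Rps29 had amplitudes of 0.25 (SE 0.0814) at ZT4.79 under NRF and 0.28 (SE 0.0751) at ZT1.95 under DRF. Rpl21 had 0.4 (SE 0.106) at ZT3.84 under NRF and 0.05 (SE 0.0972) under DRF.

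The waves of the regimens were compared at the same clock time and after a shift of 12 h. At the same clock time, the rhythms of 2 members differed between regimens (limma F, background 36%): Rpl7l1 (adjusted p = 1.15e-12) and the low Rps10 (adjusted p = 0.0298, 31 to 182 reads). The call of Rps10 was lost without DRF ZT8 replicate 4 and without NRF ZT20 replicate 3. When the DRF wave was moved by 12 h, 11 members differed (background 14.9%), among them Rpl38, Rpl39, Rpl41, Rps21, Rps28 and Rps29. The adjusted p was 0.00309 for Rpl38 and 0.00407 for Rps29. This count ranged from 1 to 33 when libraries of 1 replicate number were left out.

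**Figure D4:**
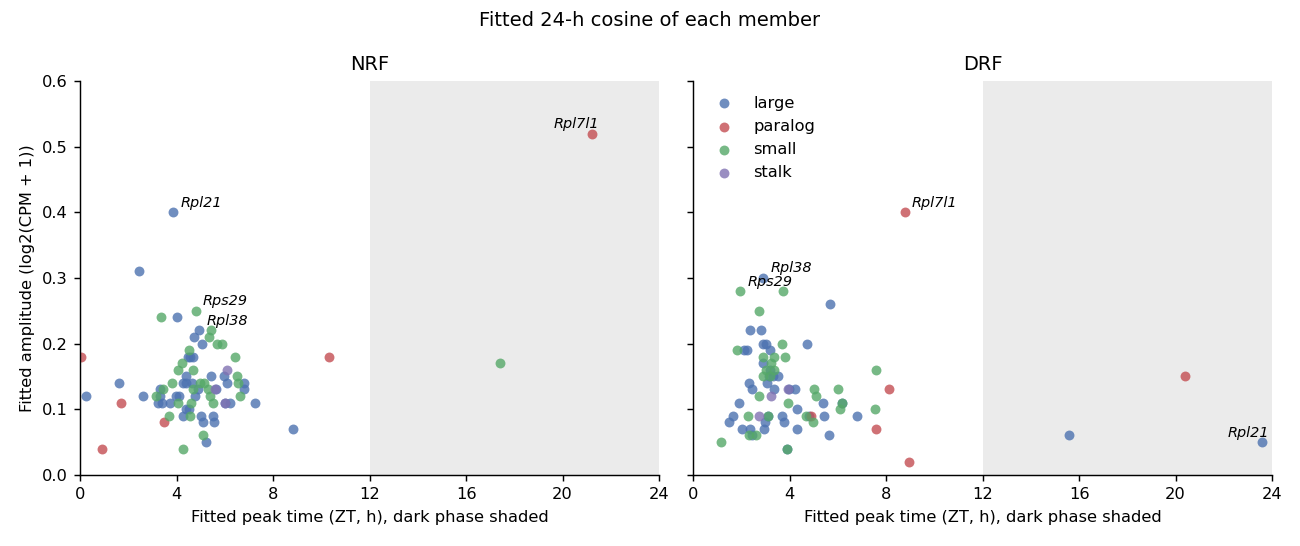
Fitted amplitude (log2(CPM + 1), y axis) against fitted peak time (ZT in h, x axis) of the 82 genes under NRF and under DRF. Most core genes lie between ZT0 and ZT8 in both panels, and Rpl7l1 moves from ZT21.2 to ZT8.76.

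By JTK_CYCLE with Lomb-Scargle, Rpl7l1 was the only member with a rhythm in both regimens, at opposite clock times (chr17:46773907-46782672, GRCm38). Under NRF its level was 103 ± 23.8 CPM at ZT0, 75.2 ± 8.05 at ZT4, 55.6 ± 6.19 at ZT8, 58.7 ± 6.31 at ZT12, 87.3 ± 8.69 at ZT16, 110 ± 8.65 at ZT20 and 104 ± 20.1 CPM at ZT24 (SD, n = 4). Under DRF it was 66.1 ± 7.11 CPM at ZT0, 119 ± 8.74 at ZT4, 102 ± 17.2 at ZT8, 105 ± 16.3 at ZT12, 83.9 ± 5.69 at ZT16, 69 ± 8.26 at ZT20 and 66.9 ± 10.3 CPM at ZT24. It was high in the phase with food and low in the phase without food in both regimens.

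For Rpl7l1, the 4 libraries at NRF ZT8 (46.7 to 60.8 CPM) all lay below the 4 at DRF ZT8 (81.9 to 116 CPM), and those at DRF ZT20 (59.9 to 79.1 CPM) below those at NRF ZT20 (100 to 119 CPM). The fitted peak was at ZT21.2 (SE 0.436 h) with an amplitude of 0.52 (SE 0.0582) under NRF and at ZT8.76 (SE 0.553 h) with 0.4 (SE 0.059) under DRF. The shift of 11.6 h (SE 0.705 h) makes it phase inverted (a shift of 8 h or more with a rhythm under both regimens). So were 1614 of the 2034 genes rhythmic under both regimens, which is 6.22% of all genes. After a shift of 12 h the waves were not called different (limma F, adjusted p = 0.499).

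The rhythm of Rpl7l1 was called under NRF with an adjusted p of 4.56e-06 and under DRF with 0.00747 (JTK_CYCLE with Lomb-Scargle). The DRF call was lost when the libraries of any replicate number were left out (adjusted p 0.0539 to 0.214) and without ZT24 (0.112). With Lomb-Scargle alone neither call was made (0.0666 under NRF and 0.524 under DRF). With limma F it was kept in these fits (adjusted p at most 0.000753). Its parent Rpl7 had an amplitude of 0.08 (SE 0.0631) under NRF and 0.09 (SE 0.0571) under DRF, neither called.

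**Figure D5:**
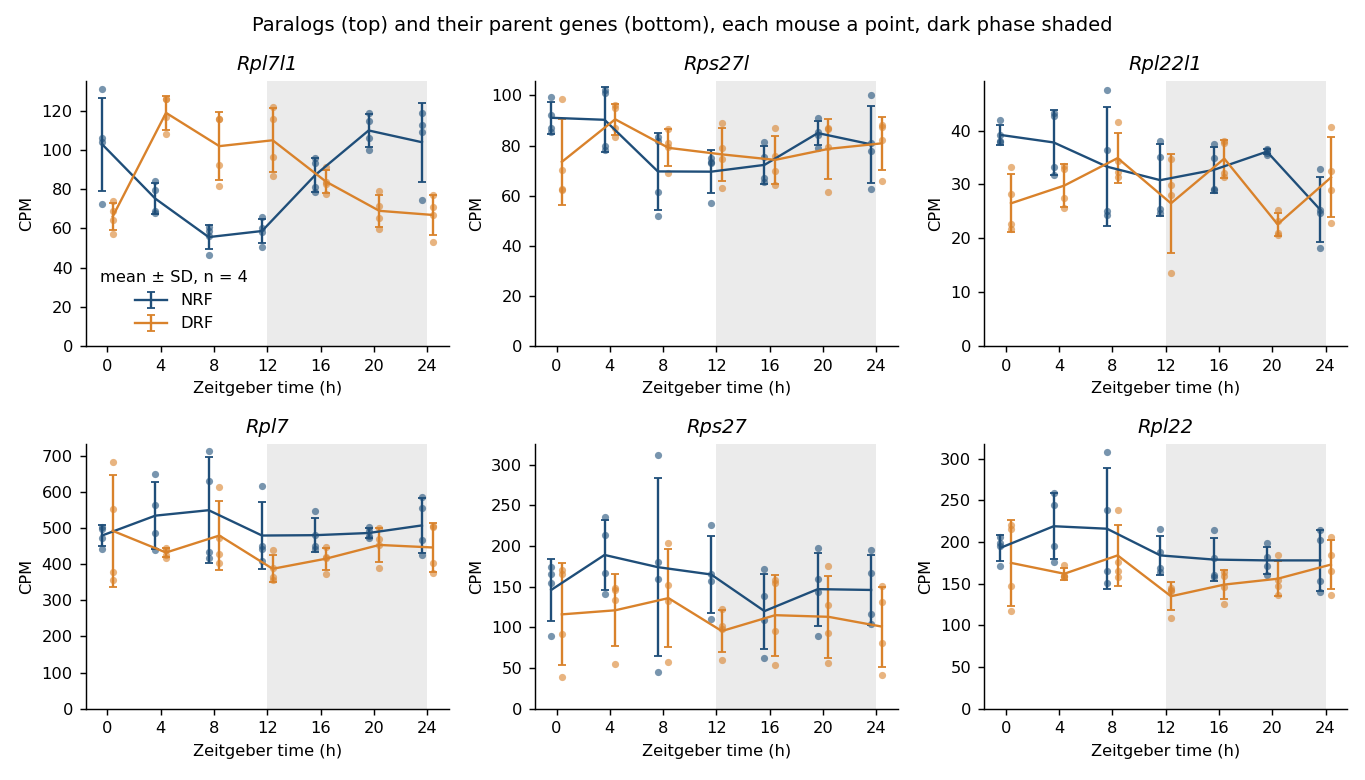
Level (CPM, y axis) of 3 paralogs and their parent genes in each library against zeitgeber time (h, x axis), with group means and SD (n = 4). Rpl7l1 is high in the dark under NRF and in the light under DRF, while Rpl7, Rps27 and Rpl22 run lower under DRF without such a turn.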

How the data were processed

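Bulk poly(A) RNA of VAT was read by the authors with HISAT2 2.0.5 and featureCounts 1.5.0-p3 on mm10, per the submitters' processing notes. The kit does not mark strand. The deposited values are called TPM but were treated as a score: log2(CPM + 1) over exon length, rescaled per library. How they were made is not given in the sources used here. Whole reads were recovered from their steps with GENCODE M21 exon lengths (99.9952% of values within 0.02 of a whole number). Lengths of 882 genes, 4 members among them, came from the values, and 1 gene was left out, so that 25938 were tested. The plan assumed linear values, so log2(CPM + 1) on the recovered effective sizes took their place in limma.

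Mean level and rhythm differences were tested with limma 3.58.1 in R 4.3.3 with an intensity trend, and groups in a model of 14 means. A pseudocount of 1 understates changes of low genes. Rhythms were tested on the deposited values by JTK_CYCLE and Lomb-Scargle joined by Fisher's method after meta2d (Python 3.11.15, numpy 2.4.6, pandas 2.3.3, scipy 1.17.1, figures with matplotlib 3.10.9). Threshold: Benjamini-Hochberg p under 0.05. Scripts were tested on simulated data. The labels name 4 replicates per group and do not say that the numbers mark shared litters or cages, so p-values measure the spread between these libraries. Named were the stalk genes, paralogs and parents, the 5 largest called differences and amplitudes, the 5 highest and lowest levels per length, members moving against the majority, Rps6 and Rps27a. Members shown for the comparison of DRF ZT16 with NRF ZT4 or named as called were chosen after their values were seen. The members and lists were chosen with earlier results of these data known. Some genes are not reported here. Gene positions are those of GRCm38. Alternatives covered scaling, pseudocount, a filter at 1 CPM, limma-voom, the deposited values, a replicate block and left-out libraries. Library total scaling and the leaving out of single libraries, NRF ZT8 replicate 2 among them, were chosen after seeing the data.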

Additional observations from a re-analysis of the deposited data

Results flagged for a closer look

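In groups of 4 libraries, some values lay far from the rest of their group, which can also happen by chance. The summed share of the 82 genes was 2.29% in DRF ZT20 replicate 4, above the other libraries of its group. Rps27 was at 55.1 CPM in DRF ZT4 replicate 1, below its group. Rps27l was at 57 CPM in NRF ZT12 replicate 2, below its group. The rhythm differed between regimens for Rpl7l1 (adjusted p = 1.15e-12) and Rps10 (adjusted p = 0.0298) by the limma F test.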

How the results depend on the processing

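The fall of the family in mean level was kept in direction in the fits on recovered reads, and no count is given for the deposited values. It was called for 31 to 64 members when 1 replicate number was left out, for 55 to 68 when single libraries were, and for 72 without DRF ZT8 replicate 1 and DRF ZT0 replicate 4. The 1 member called higher became 2 without those libraries, 0 with library totals with or without members, and 0 to 1 without a replicate number. It was not always the same gene: without replicate 2 and without ZT24 it was Rpl7l1, where Rpl36al was not called. Values near 0 changed sign: Rpl39l (-0.01 to 0.03 over left-out replicates, -0.02 without ZT24), Rpl3l (-0.31 to 0.11 over left-out replicates) and Rps27l (-0.04 with totals without members, -0.02 with quantiles, -0.03 with limma-voom, -0.03 with library totals, -0.01 without ZT24, -0.00465 to 0.04 over left-out replicates and libraries). Of 429 values of the 27 named genes under alternatives, 377 kept direction and side of the threshold, 24 passed it newly, 18 lost it and 10 changed sign. The causes were not tested.

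Replicate numbers showed little pairing of the libraries, which was not tested. The mean correlation of deviations was 0.041 within a number and -0.012 between numbers, and 16 of 56 libraries correlated best with their own number. With a replicate block 65 members were lower, 2 higher, 5 differed at ZT0, and the limma F test called 8 members under NRF, 5 under DRF and 2 under both.

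Counts at single times were unstable. With totals without members, library totals, quantiles, limma-voom and the deposited values, 70, 67, 63, 71 and 3 members differed at ZT4, and 26 with the 1 CPM filter or without the libraries with epithelial markers (range over left-out replicates 1 to 45). At ZT0 there were 5 with pseudocount 0.1, 6 with the filter, the deposited values or without NRF ZT8 replicate 2, and 7 without the epithelial libraries (1 to 4 over replicates). At ZT8 there were 2 without the epithelial libraries (1 to 4). At ZT12 there were 1 with either total, limma-voom or the deposited values and 4 with the filter or without NRF ZT8 replicate 2 (1 to 1). At ZT16 there was 1 with quantiles, the filter or without the epithelial libraries (0 to 1). At ZT20 there were 4 with the filter, without the epithelial libraries or without NRF ZT8 replicate 2 (1 to 2), and at ZT24 1 to 2 over replicates.

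Between DRF ZT16 and NRF ZT4 there were 60 with either total, 61 with limma-voom and 20 with the deposited values (0 to 56 over left-out replicates and libraries). Between DRF ZT20 and NRF ZT8 there were 19 with totals without members, 18 with library totals, 13 with quantiles, 22 with limma-voom, 4 with the filter or without the epithelial libraries, and 0 with the deposited values or without NRF ZT8 replicate 2 (0 to 12). Between DRF ZT4 and NRF ZT16 there were 0 with either total or limma-voom (0 to 1). Between mid-feeding and mid-fasting under DRF there were 5 with either total or limma-voom and 1 with the deposited values (0 to 2).

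Different rhythms after a 12 h shift numbered 17 with the filter and 2 with the deposited values (1 to 33), and at the same clock time 1 to 3 over left-out replicates and libraries. Under NRF, 4 members were rhythmic with totals without members, 3 with library totals, 2 without ZT24, 0 with Lomb-Scargle alone and 6 by limma F (1 to 2). Under DRF there were 0 with Lomb-Scargle alone or without ZT24 and 4 by limma F (0 to 1). Rhythmic under both were 0 with Lomb-Scargle alone or without ZT24 and 2 by limma F (0 to 0), and phase inverted 0 with Lomb-Scargle alone or without ZT24 (0 to 0). Members with few reads, such as Rpl39l, Rpl36al and Rpl3l, limit what depth can show.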
